A study of Mus musculus with 8 samples.

Results

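The AP-1 family loci described here are the genes Fos, Fosb, Fosl1, Fosl2, Jun, Junb, Jund, Atf3, Batf3 and Maff, each taken as its gene body with 50 kb to each side in the mouse genome (mm10). They are 10 of the 21938 protein-coding genes of the annotation and lie on 8 chromosomes. They were chosen by name and not by their accessibility, but with earlier results of these data known. Open chromatin was mapped with ATAC-seq, an assay that uses a transposase to cut and tag accessible DNA, during the reprogramming of mouse embryonic fibroblasts (MEFs) into induced pluripotent stem cells. For each gene, the peaks of each deposited list that overlapped its window by at least 1 bp were counted and placed, and peaks over an annotated start site of the gene were recorded.

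The 8 libraries formed 4 groups of 2. The MEFs were wild-type, untransduced and of the C57BL/6J-OG2 strain, which carries an Oct4-GFP reporter. The OSKM day 5 and day 10 groups were MEFs of the same strain that had been infected with retroviruses for Oct4, Sox2, Klf4 and c-Myc (OSKM) together with a FLAG control vector. After the infections they were kept in embryonic stem cell medium with vitamin C at 50 µg/ml. They were sampled on days 5 and 10, which the study's methods count from the first infection. The embryonic stem cells (ESCs) were wild-type and untransduced, with 1 library labelled C57Bl6J and the other C57BL/6J-OG2. The labels describe ESC culture on feeder cells, which are themselves fibroblasts, whereas the study's methods describe ESCs on gelatin with inhibitors and LIF for these libraries. The day 5 and day 10 cells were whole cultures, so a smaller share of cells with an open site and a smaller opening per cell cannot be told apart.

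Each group was deposited as a single peak list made from both libraries. There was therefore 1 list per group, no spread between replicates, and no test; all values below are descriptions of these lists, set beside the same value over all protein-coding genes. List length was 56514 peaks for MEFs, 36219 for day 5, 35226 for day 10 and 48486 for ESCs, and the number of reads behind them is unknown. Fibroblast and ESC marker genes were checked in the same windows. All 8 fibroblast markers had a start-site peak in MEFs, while 5 did at day 5, 4 at day 10 and 3 in the ESC list, and their windows held 52, 29, 27 and 18 peaks. The windows of 8 ESC markers held 25, 20, 24 and 68 peaks, and Dppa4, an ESC-associated gene, had 0 peaks in all lists but that of ESCs, where it had 7. A start-site peak was present for 3, 1, 2 and 5 of the ESC markers, so this check was less clear. Utf1 went the other way, with 8 peaks in MEFs and 6 in ESCs.

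AP-1 is a dimer of basic leucine zipper (bZIP) proteins, built from a JUN protein paired with another JUN, a FOS, an ATF or a related protein, which binds a short palindrome-like site, the TPA response element. FOS and JUN genes are immediate early genes: serum and growth factors raise their transcription within minutes through kinases of the MAPK family, the serum response factor SRF and its ETS partners. In fibroblasts AP-1 is known for driving proliferation and matrix-remodelling genes and for occupying many fibroblast enhancers. ATF3 and BATF3 pair with JUN proteins, and MAFF is a small MAF protein that lacks a transactivation domain.

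The AP-1 site was searched as TGACTCA on both strands, that is TGACTCA or TGAGTCA, in the central 200 bp of each accessible region. A region is a set of peaks, of any of the lists, that overlap or lie within 400 bp of each other, and is called MEF-specific when it held a MEF peak and no ESC peak. For the 8 genes with such a MEF-specific region in their window, the sequence around the match in the region highest in the MEF list is shown, because these letters are what the comparison of motifs counts. Capitals mark the matches, all on the plus strand of GRCm38/mm10:
Fos: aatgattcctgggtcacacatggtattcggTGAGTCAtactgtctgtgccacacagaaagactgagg
Fosb: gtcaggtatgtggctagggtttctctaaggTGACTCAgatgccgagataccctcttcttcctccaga
Fosl2: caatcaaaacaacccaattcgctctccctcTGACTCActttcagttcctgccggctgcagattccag
Jun: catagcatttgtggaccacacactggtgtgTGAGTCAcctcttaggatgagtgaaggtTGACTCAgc
Junb: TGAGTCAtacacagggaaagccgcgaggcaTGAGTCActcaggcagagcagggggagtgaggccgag
Atf3: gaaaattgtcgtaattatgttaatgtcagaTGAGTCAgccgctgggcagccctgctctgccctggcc
Batf3: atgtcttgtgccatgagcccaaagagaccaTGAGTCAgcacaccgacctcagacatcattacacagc
Maff: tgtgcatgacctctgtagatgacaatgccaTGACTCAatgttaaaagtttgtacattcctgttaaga

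Distances run from the middle of the region to the nearest start site of its gene. The Fos sequence (chr12:85519747-85519813) lay between genes 44.9 kb downstream of the start site, in a region open in MEFs alone. The Jun sequence (chr4:95001558-95001624) carried 2 matches and lay in an intron of Gm12694, 50.7 kb downstream of Jun, in a region of the MEF list alone. The Junb sequence (chr8:84985657-84985723) also carried 2 of the 3 matches of its region, 6.98 kb upstream of the start site, and that region held a peak in MEFs and at both reprogramming days. The Atf3 sequence (chr1:191216275-191216341) lay in an Atf3 intron, 1.69 kb from the 5′-most start site, in a region open in MEFs and on both days. The Fosb sequence (chr7:19316970-19317036) lay 6.88 kb upstream and the Fosl2 sequence (chr5:32089688-32089754) 46.2 kb upstream, both between genes and both in the MEF list alone. The Batf3 sequence (chr1:191055400-191055466) lay 42.5 kb upstream, in a region that overlapped an exon of Tatdn3. The Maff sequence (chr15:79299907-79299973) lay in an intron of Pla2g6 46.7 kb upstream.

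In the windows of the 10 genes lay 85 peaks of the MEF list, 53 of day 5, 58 of day 10 and 63 of ESCs, which is 0.150%, 0.146%, 0.165% and 0.130% of each list. The peaks covered 86.0, 46.5, 62.0 and 46.7 kb. The median gene of the family had 8.5, 5, 5.5 and 7 peaks, against 5, 3, 3 and 4 for all protein-coding genes. The family windows were thus richer in peaks than the median gene in every list, and MEFs, with the longest list, had the most. At equal list length, with 35226 peaks kept per list, the windows held 61, 49, 58 and 50 peaks. MEFs and day 10 were then close. In 7 of the 10 genes the MEF list had more peaks than the ESC list (Fos, Fosb, Fosl1, Fosl2, Jun, Atf3 and Maff), while this was so for 42.2% of all protein-coding genes. With 100 kb to each side 5 genes had more in MEFs and 5 more in ESCs, and with 20 kb 5 and 2 (background 46.7% and 38.7%, then 35.5% and 30.5%). Junb, Jund and Batf3 had more in ESCs, as did 35.6% of all genes. All but Jund had fewer peaks at day 5 than in MEFs, 9 of 10 against a background of 63.2%. The day 5 list was the shorter, and at equal list length 7 genes had fewer at day 5 (35.6% of all genes) while Fosl2, Junb and Jund had 1 more each (28.2% of all genes had more). From day 5 to day 10 the number rose in 5 genes (background 33.0%) and fell in Atf3 alone (background 20.5%). With every list shortened to its 35226 highest peaks, 5 genes had more in MEFs, 3 more in ESCs and 2 the same, against 34.6% of all genes with more in MEFs and 38.2% with more in ESCs.

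**Figure D1:**
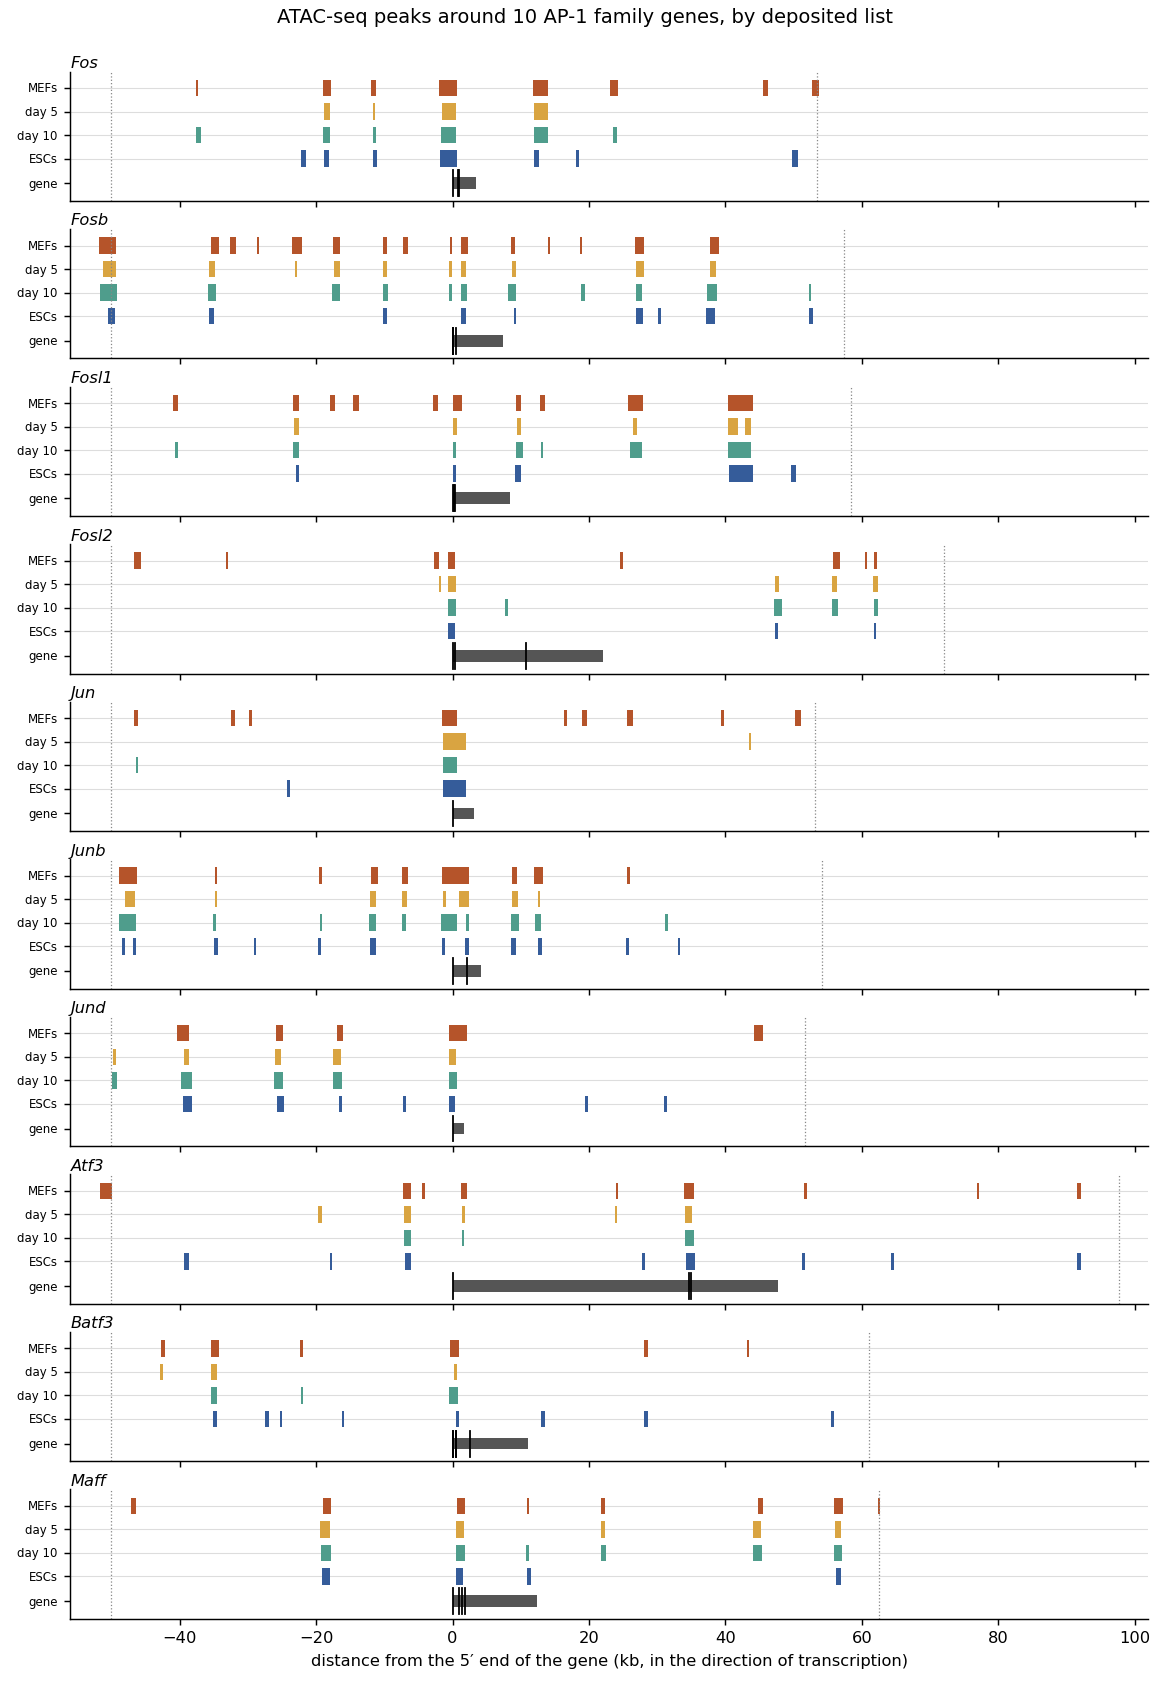
Positions of the peaks of each list (rows: MEFs, OSKM day 5, OSKM day 10, ESCs) along the windows of the 10 genes, with the distance from the 5′ end of the gene in kb on the x axis, in the direction of transcription. Grey bars show the gene, black ticks its start sites and dotted lines the window edges. The Jun window shows 9 MEF peaks and 2 in each other list, whereas the Junb window is filled in every list.

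Among the FOS genes, which encode the partners that cannot pair with themselves, Fos (chr12:85473890-85477273) had 8, 4, 6 and 7 peaks in MEFs, day 5, day 10 and ESCs. Fos had 1 more peak in MEFs than in ESCs, and 42.2% of genes had an excess at least as large. That difference was 0 at equal list length and with 20 kb to each side, and turned to -1 with 100 kb. Fosb (chr7:19302696-19310051), an immediate early gene like Fos, had 15, 10, 11 and 9 peaks, the highest MEF count of the family; 4.08% of protein-coding genes had a MEF excess of 6 or more. Its window also held the starts of 6 other coding genes, and the peaks there count for it too. Fosl1 (chr19:5447547-5455946), which encodes FRA-1, had 10, 6, 7 and 5 peaks, with 11 other coding genes starting in its window. Fosl2 (chr5:32135801-32157842), which encodes FRA-2, had 8, 5, 5 and 3 peaks and no other coding gene starting nearby. Fosl1 and Fosl2 each had 5 more peaks in MEFs than in ESCs, which 6.78% of genes reached. At equal list length the Fosl2 excess shrank to 1 peak (4 against 3) and that of Fosl1 stayed at 5 (8 against 3).

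Jun (chr4:95049034-95052222), which encodes the c-JUN subunit able to pair with itself and with FOS proteins, had 9 peaks in MEFs and 2 in each of the day 5, day 10 and ESC lists. This was the largest MEF excess of the family, 7 peaks, and 2.62% of protein-coding genes had one as large. The excess depended on the window: it was 2 peaks with 20 kb to each side and 3 with 100 kb, where Fosl2 had an excess of 9 and Maff of 5. Apart from the start-site region, which was in all 4 lists, the window held 7 regions with a peak in MEFs alone, 1 in MEFs and at day 10, 1 at day 5 alone and 1 in ESCs alone. A count of 7 or more was found in 4.12% of protein-coding genes. No other coding gene starts in this window, and the 8 MEF-specific regions stretched from 50.7 kb downstream to 46.4 kb upstream, within or beside the noncoding genes Gm12694, Gm12703 and Junos; 3 of them held an AP-1 match. At equal list length Jun still had 7 peaks in MEFs and 2 in each other list. Junb (chr8:84974484-84978718), a JUN gene that can restrain c-JUN, went the other way, with 9, 8, 10 and 12 peaks, and Jund (chr8:70698949-70700616), the JUN gene expressed broadly in resting cells, had 5, 5, 5 and 7. The ESC excess of 3 peaks at Junb was matched or exceeded by 11.7% of genes. The Junb and Jund windows held the starts of 9 and 5 other coding genes.

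Atf3 (chr1:191170296-191218039), a stress-induced member of the ATF group, had 9, 5, 3 and 8 peaks. Batf3 (chr1:191097847-191108945), known from dendritic cells as a JUN partner, had 6, 3, 3 and 8. These genes are neighbours, their windows overlap and they share 3 regions, so they are not separate observations. Atf3 had 1 more peak in MEFs than in ESCs in the full lists and 2 fewer at equal list length (5 against 7), and the difference was -3 with 100 kb to each side. Maff (chr15:79346621-79359076) had 8, 5, 6 and 4 peaks, and 6, 5, 6 and 4 at equal length; 11.1% of genes had a MEF excess of 4 or more.

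**Figure D2:**
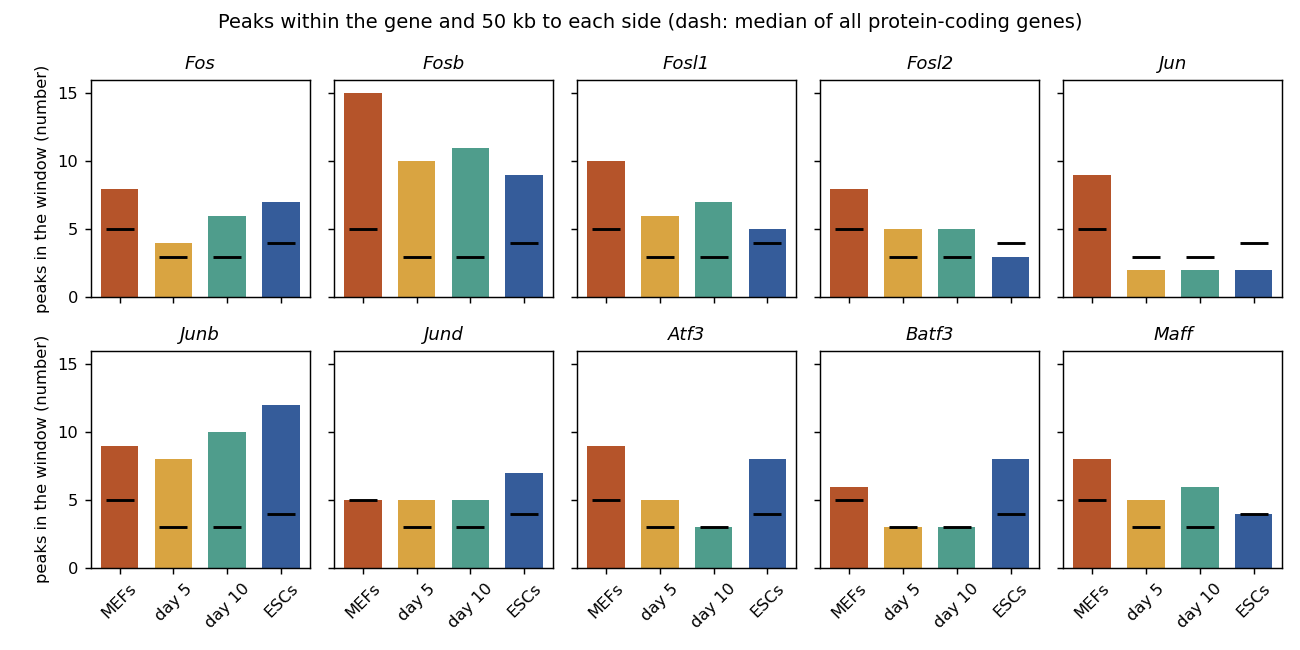
Number of peaks in the window of each gene (y axis) in each of the 4 lists (bars), with the median of all protein-coding genes as a dash. Fosb has the most MEF peaks with 15, and Jun falls from 9 in MEFs to 2 in the other lists.

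A peak over an annotated start site was present for 9 of the 10 genes in MEFs (60.0% of protein-coding genes), 9 at day 5 (52.1%), 9 at day 10 (56.0%) and, in the ESC list, 8 (55.8%); 8 genes had one in all 4 lists (46.8%). For these 8 genes a start-site peak was thus present in fibroblasts, intermediates and ESCs alike. Fosb had no such peak in any list, and Batf3 none in ESCs. Its nearest peaks ended 18, 12 and 8 bp short of the 5′-most start site in MEFs, at day 5 and at day 10, in a region at chr7:19310059-19310546 that had no ESC peak, where the nearest lay 1297 bp away. A region inside the gene (chr7:19307816-19308879) held a peak in all 4 lists. At Batf3 the ESC peak began 30 bp past a noncoding start site and 88 bp past the protein-coding one. At Junb, the protein-coding start site was under a peak in MEFs and at day 10, while at day 5 and in ESCs the nearest peaks lay 1001 and 1074 bp from it. In those lists the peak over a Junb start site covered only that of a processed transcript. These gaps depended on the rule of direct overlap: within 1 kb of a start site, all 10 genes had a peak in every list. The share of all genes under that wider rule is not given here.

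The Fos start-site peak (chr12:85471927-85474589 in MEFs) was at 3.32% from the top of the MEF list ordered by the authors' q-value, and at 8.70%, 14.1% and 29.9% at day 5, day 10 and in ESCs. Atf3 was at 4.08% in MEFs and at 6.57%, 13.2% and 53.9% in the other lists, with its peak at chr1:191182569-191184093 in MEFs. Jun (chr4:95051503-95053691) was at 5.60%, 20.1%, 7.70% and 23.3%, Fosl2 (chr5:32135130-32136214) at 3.60%, 29.4%, 6.31% and 23.7%, and Maff (chr15:79347210-79348460) at 2.12%, 20.7%, 6.98% and 13.5%. Lower places at day 5 were common to most genes: of all genes with a start-site peak in every list, 83.4% were nearer the top in MEFs than at day 5 and 74.4% nearer at day 10 than at day 5 (7 and 6 of the 8 family genes). The fold enrichment of the Jun peak was 2.89, 2.78, 2.86 and 2.78, and that of the Fosl2 peak 3.09, 3.04, 3.15 and 3.77. For both genes the fold was only slightly lower at day 5 than in MEFs and at day 10. Fosl1 (chr19:5447626-5448866) was at 31.6%, 66.1%, 14.5% and 61.4%. The remaining JUN genes were nearer the top in ESCs than in MEFs: Junb (chr8:84976316-84980327) was at 28.3%, 49.7%, 30.1% and 20.4%, and Jund (chr8:70698428-70701053) at 24.6%, 19.4%, 11.5% and 12.7%. For Junb the places belong to unlike peaks, as those at day 5 and in ESCs did not cover the protein-coding start site. Batf3 (chr1:191097419-191098774) was low, at 51.2%, 97.9% and 86.8%, with no ESC value. Of the 8 genes with a peak in all lists, 6 were nearer the top in MEFs than in ESCs, a share close to the 72.9% of all genes with such peaks. The median shift was 18.9 points for the family and 7.21 points for all such genes. Places in lists of different length and unknown depth are not a measure of how open a site was. The peaks' fold enrichment over background followed the rank only in part. That of Atf3 was 3.56, 3.86, 3.23 and 2.91, lowest in ESCs like the rank, but higher at day 5 than in MEFs. The fold was higher in MEFs than in ESCs for 4 of the 8 genes, against 53.4% of all.

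**Figure D3:**
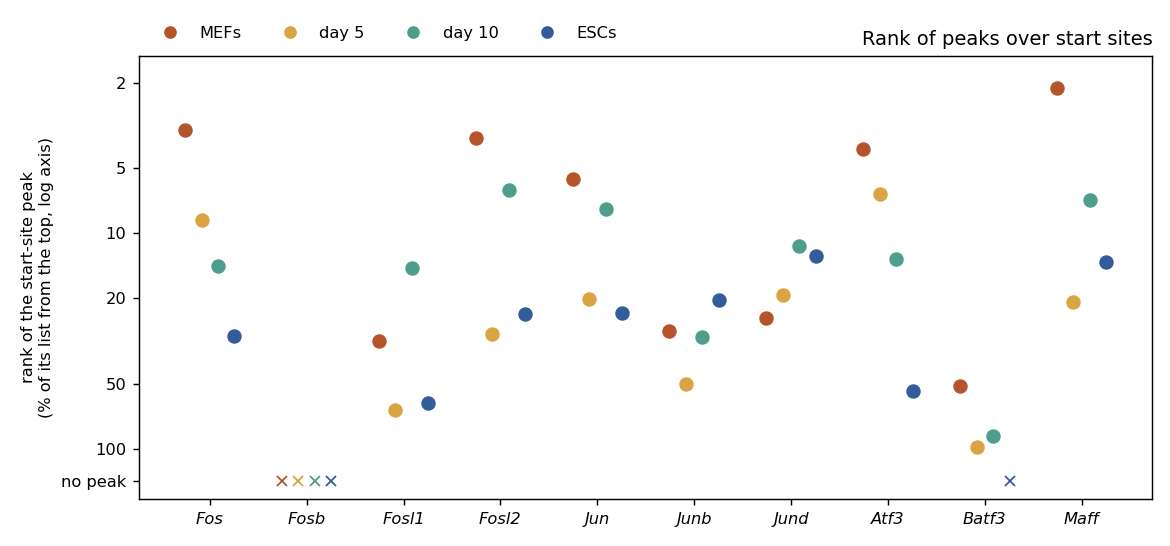
Position of the start-site peak in each list as a percent from the top (log y axis, the top of the list drawn upward) for each gene and list (points), with crosses where no peak covered a start site. Atf3 goes from 4.08% in MEFs to 53.9% in ESCs, and Batf3 has no ESC point.

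Sequences upstream of the start sites were read because Fos and Jun are textbook targets of serum and stress signalling. RefSeq promoter windows matched 9 of the 10 genes (11 windows), and Fosl1 was not matched. The 300 bases from 350 to 51 bases before the RefSeq start site of Fos (chr12:85473540-85473839, plus strand), Fosb (chr7:19310096-19310395, minus strand) and Jun (chr4:95052273-95052572, minus strand) are given 5′ to 3′ from GRCm38; Fosb was added after its values were seen. Capitals mark a CArG box, the binding site of SRF, searched by name on both strands:
Fos: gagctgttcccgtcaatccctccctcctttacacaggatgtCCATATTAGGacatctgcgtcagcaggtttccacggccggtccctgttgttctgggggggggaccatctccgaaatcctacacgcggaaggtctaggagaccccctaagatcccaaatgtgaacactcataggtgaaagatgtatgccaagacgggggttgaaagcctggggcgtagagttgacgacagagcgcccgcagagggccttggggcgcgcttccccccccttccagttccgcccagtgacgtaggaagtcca
Fosb: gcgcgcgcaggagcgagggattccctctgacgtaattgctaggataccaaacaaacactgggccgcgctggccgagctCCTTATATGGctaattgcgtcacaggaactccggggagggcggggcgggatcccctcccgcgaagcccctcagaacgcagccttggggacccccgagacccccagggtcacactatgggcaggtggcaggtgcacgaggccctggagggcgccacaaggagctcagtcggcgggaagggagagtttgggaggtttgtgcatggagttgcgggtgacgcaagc
Jun: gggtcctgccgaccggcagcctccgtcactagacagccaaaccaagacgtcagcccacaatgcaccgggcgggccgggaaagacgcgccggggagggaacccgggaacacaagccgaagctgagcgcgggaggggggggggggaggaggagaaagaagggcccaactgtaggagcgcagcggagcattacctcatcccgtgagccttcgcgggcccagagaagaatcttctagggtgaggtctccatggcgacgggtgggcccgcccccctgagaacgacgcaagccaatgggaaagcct

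The Fos window held a CArG box 309 bases before the start site and the Fosb window one 272 bases before it; 1.70% of the 32851 RefSeq promoters hold this motif in the same window. On both strands, the AP-1 letters were also searched, with the cAMP response element TGACGTCA and the jun1 site TGACATCA; the motifs differ from each other in their letters and were found in 4.97%, 1.01% and 2.39% of all promoters and in none of the 11 family windows. An absent match says only that these letters are not in the window. Family windows had a median GC content of 61.3% and a CpG observed over expected ratio of 0.714, against 50.3% and 0.340 over all promoters.

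The peaks of the 10 windows merged into 111 regions. Of these 45 were MEF-specific (40.5%, Wilson 95% interval 31.9 to 49.8%), 21 ESC-specific, with an ESC but no MEF peak (18.9%, 12.7 to 27.2%), 40 common to MEFs and ESCs (36.0%, 27.7 to 45.3%) and 5 transient, with a peak at day 5 or day 10 but in neither MEFs nor ESCs (4.50%, 1.94 to 10.1%). In the windows of all protein-coding genes the shares were 35.2%, 27.9%, 22.9% and 14.1%. Intervals cover counting error only. The MEF-specific share thus lay near the background, while common regions took a larger and transient regions a smaller share of the family windows in the full lists. At equal list length there were 32 MEF-specific, 20 ESC-specific, 29 common and 9 transient regions. The small transient share thus depended on list length, and its background at that length is not given here. There were more MEF-specific than ESC-specific regions in 7 of the 10 windows (42.4% of all genes). A day 5 peak was found in 12 of the 45 MEF-specific regions (26.7%, 15.96 to 41.04%), a day 10 peak in 15 (33.3%, 21.4 to 47.9%) and neither in 26 (57.8%, 43.3 to 71.0%). Over the windows of all protein-coding genes these shares were 15.0%, 16.5% and 79.5%. The family windows thus held a larger share of MEF-specific regions with a peak on a reprogramming day. MEF-specific regions over start sites of other genes all had such a peak, except that at D830036C21Rik. These start-site regions were 20% of the family's MEF-specific regions against 7.39% in the windows of all coding genes. Their part in the larger share was not tested. Of the 21 ESC-specific regions 1 had a day 5 peak, 2 a day 10 peak and 19 neither (90.5%, 71.1 to 97.3%), near the 84.8% of all coding-gene windows.

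**Figure D4:**
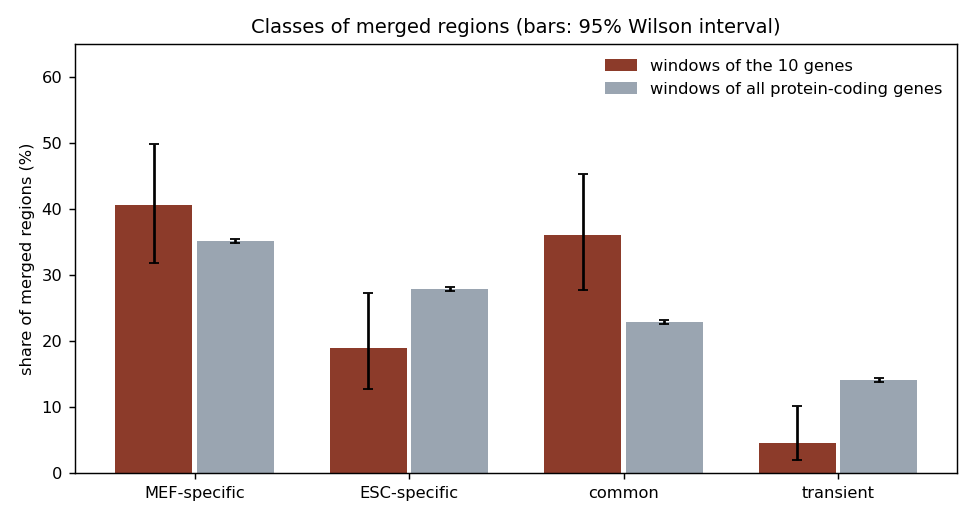
Share of merged regions (y axis, percent) in each class for the windows of the 10 genes (red, 111 regions) and of all protein-coding genes (grey), with Wilson 95% intervals as bars. Common regions take 36.0% of the family windows against 22.9%, and transient ones 4.50% against 14.1%.

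Of the 40 common regions, 28 covered a start site, 9 of a listed gene and 19 of another gene; this 70.0% was near the 67.0% of common regions in the windows of all coding genes. Over all classes 41 of 111 regions (36.9%, 28.5 to 46.2%) covered a start site, against 20.1% in the windows of all coding genes. None of the 45 MEF-specific regions covered a listed start site. They lay in introns (14), between genes (17), in exons (5) and over start sites of other genes (9), which is 20% (10.9 to 33.8%) against 7.39% in the windows of all coding genes. They lay at a median of 26.5 kb from the nearest start site of their gene, with 5 within 5 kb. A region between genes near Fos, named after its values were seen, was open in all 4 lists: chr12:85454925-85456006, 18.4 kb upstream, was peak number 144 of the MEF list and 978, 717 and 4889 of the day 5, day 10 and ESC lists. Its fold enrichment was 5.56, 5.27, 4.30 and 3.98.

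By the rule of the highest MEF peak outside any start site, the MEF-specific region of Fos was chr12:85497005-85498204, 22.7 kb downstream, in MEFs and at day 10. That of Fosb was chr7:19326526-19327670, 17.0 kb upstream in an intron of D830036C21Rik, in MEFs and on both days. Those of Fosl2, Jun, Junb, Atf3, Batf3 and Maff were the regions whose AP-1 sites are printed above. At Fosl1 it was chr19:5444747-5445468, 2.44 kb upstream and in MEFs alone, and at Jund chr8:70743205-70744415, in an exon of Pde4c and low in the list at 88.7%. Regions specific to ESCs chosen in the same way include chr1:191189836-191190322 in an Atf3 intron, at 55.5% of the ESC list, and chr8:85007587-85007863 in an exon of Best2 near Junb, at 21.4% of the list. Fosl1 and Maff had none outside start sites.

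AP-1 matches were present in the central 200 bp of 11 of the 45 MEF-specific regions (24.4%, 14.2 to 38.7%), against 4.44% of flanking windows 1 kb away. Over all MEF-specific regions of the genome the share was 23.0%, so the share in the family windows was close to the background. Of the 21 ESC-specific regions 2 held a match (9.52%, 2.65 to 28.9%; 3.94% genome-wide), as did 0 of 40 common regions, an interval up to 8.76%, and 0 of 5 transient ones. A MEF-specific region with a match lay in the window of 8 genes, all but Fosl1 and Jund, against 35.6% of all protein-coding genes. Richness in peaks differs between the family and other genes and its part in that count was not tested.

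**Figure D5:**
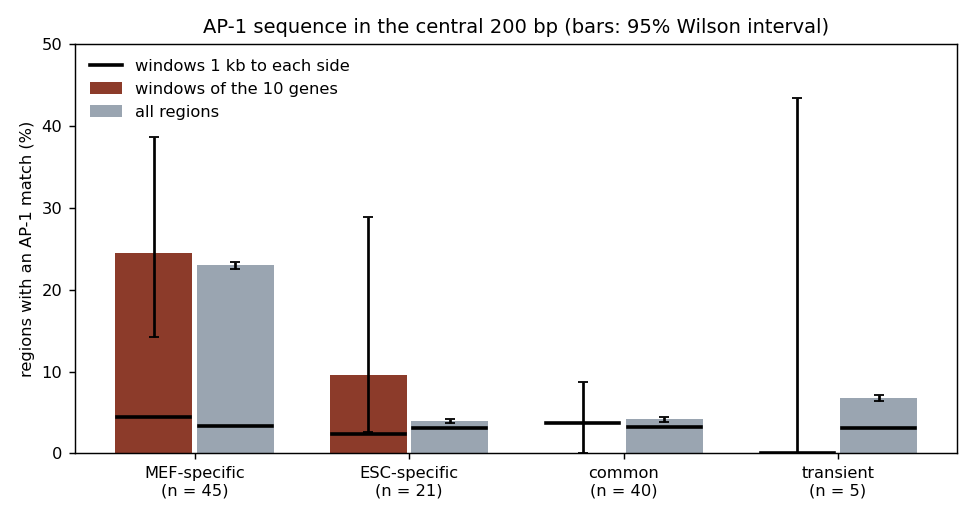
Share of regions with an AP-1 match in their central 200 bp (y axis, percent) by class, for the 10 windows (red) and for all regions (grey), with Wilson 95% intervals as bars and the share in flanking windows as a black line. MEF-specific regions stand at 24.4% and 23.0%, and common regions of the family at 0.

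Related genes were counted in the same way. Of 13 bZIP relatives, 6 had more peaks in MEFs, 5 more in ESCs and 2 the same, near the 42.2% and 35.6% of all genes. Bach2, which encodes a repressor that pairs with small MAF proteins, had 26 peaks in MEFs and 9 in ESCs, and Bach1, its relative, had 7 and 11. Of 10 upstream genes (MAPK kinases, SRF and its ETS partners), 4 had more in MEFs, 4 more in ESCs and 2 the same, also near the background. Of 14 AP-1 target genes 12 had more in MEFs, against 42.2% of all genes, and 1 more in ESCs, the collagenase gene Mmp13, named after its values were seen; Cd44, a hyaluronan receptor gene, had 12 and 3. At equal list length 7 of the 14 had more in MEFs (34.6% of all genes). With 20 kb to each side 9 did, and with 100 kb also 9 (35.5% and 46.7% of all genes). Fibroblast markers were likewise higher in MEFs in 7 of 8 and ESC markers higher in ESCs in 7 of 8. The split over the 4 lists was compared for 33 bZIP relatives, upstream genes and AP-1 targets, those with 10 or more peaks. Marker genes were left out of this comparison. Nearest to the family were Batf2, Atf7, Nfe2l1, Timp1 and Hmox1, with summed differences in share of 7.90 to 11.7 points.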

How the data were processed

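ATAC-seq peaks were taken as deposited: a single list per group, which the file naming describes as an intersection of libraries. Per the labels, reads were mapped to mm10 with bowtie2 (version 2.2.0 in the submitters' processing notes; the methods differ), low-quality and multiply placed reads were removed, and mitochondrial reads were left out; the peak caller is not given in the sources used here. Each deposited peak carries a score, a fold enrichment ratio over background, a −log10 p-value and a −log10 q-value made by the authors. The −log10 q-value ordered each list. The deposited score is a whole number derived from that q-value and was not used further. Gene windows and start sites came from GENCODE M21, and every annotated transcript start counted. Counting and motif searches used Python 3.11.15, numpy 2.4.6 and pysam 0.24.0, and were tested on simulated data. Overlap of at least 1 bp counted; peaks within 400 bp were merged into regions. With 1 list per group no test was made and no p-value is given; depth is unknown and Wilson 95% intervals cover counting error only. The listed genes, comparison lists and rules were chosen with earlier results of these data known. Named regions were, per gene, the highest MEF-specific and ESC-specific region outside start sites. Alternatives were other window sizes, equal list length, other start sites, merging and motif windows, and RefSeq starts, of which the RefSeq, peak-name and fold choices, and the equal-length count at day 5 and the differences per gene, were made after seeing the data.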

Additional observations from a re-analysis of the deposited data

How the results depend on the processing

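No paired analysis was possible because each group was deposited as a single list made from its numbered libraries; leaving out each replicate was not run for the same reason. Of 188 values over all settings, per-gene differences included, 135 stayed within their margin, 50 moved and 3 reversed. The reversed values were the MEF minus ESC differences of Atf3, from 1 to -2 at equal list length and -3 with 100 kb to each side, and of Fos, from 1 to -1 with 100 kb. The genes with more peaks in MEFs numbered 5 and those with more in ESCs 5 with 100 kb, against 7 and 3, and the excess of Jun fell from 7 to 2 with 20 kb and 3 with 100 kb. With 20 kb to each side the windows held 47, 33, 35 and 36 peaks in MEFs, day 5, day 10 and ESCs (MEFs minus ESCs 11), with 20 MEF-specific, 8 ESC-specific and 2 transient regions; with 100 kb they held 133, 89, 95 and 116 peaks and 41 ESC-specific, 73 common and 9 transient regions. At equal list length the MEF minus ESC difference fell from 22 to 11, transient regions numbered 9, and 7 AP-1 target genes had more peaks in MEFs. Without peaks within 1 kb of another gene's start site, 51, 28, 27 and 34 remained. Counting only the 5′ end of each gene, 6, 4, 6 and 4 genes had a start-site peak in MEFs, day 5, day 10 and ESCs, with Junb and Batf3 covered in MEFs and at day 10 only; with RefSeq start sites, chosen after seeing the data, 6, 5, 6 and 5 of 9 genes. Searching whole regions raised the AP-1 share to 51.1% of MEF-specific and 27.5% of common regions, since longer sequences were searched. For the other moved values the cause was not tested. Depth is unknown, so a missing peak does not show closed chromatin, and a count of peaks depends on list length.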

Other observations

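Other genes starting in the family windows also had regions specific to MEFs or to ESCs. A MEF-specific region of 2199 bp (chr19:5473275-5475473), 26.5 kb downstream of Fosl1, covered the start site of Efemp2, which encodes the extracellular matrix protein fibulin-4; it held peaks in MEFs and on both days. Of the 9 MEF-specific regions over start sites of other genes, 3 lay in the Fosb window, 3 in the Fosl1 window and 1 at the far start of Junos, the noncoding gene next to Jun. The 4 ESC-specific regions over start sites lay at Snx32, Ppm1n, Gm3336 and Pde4c. Only 5 transient regions were found, 1 each near Fosl2, Jun, Junb, Jund and Atf3.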
